A study of Mus musculus with 16 samples.

Results

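The collagen genes of the mouse were followed in the trigeminal ganglion across age and Nogo-A genotype. They were taken by symbol, as every gene named Col, a number, a and a number, which gave 44 of the 25719 gene identifiers in the files. The low-count filter kept 42 of the 44, and Col6a4 and Col6a6 were removed by it. The members were sorted into 8 classes by the assembly their proteins form: 11 fibrillar genes, 6 of basement membrane type IV, 6 of beaded filament type VI, 9 FACIT genes (fibril-associated collagens with interrupted triple helices), 3 short-chain network genes, 2 multiplexins, 4 transmembrane genes and 3 anchoring and other genes. Whole ganglia came from wild-type (WT) mice and from mice deficient in Nogo-A (KO), the long protein made from Rtn4. They were taken at embryonic day 14 (E14) or postnatal day 25 (P25). Each of the 4 groups (E14 WT, E14 KO, P25 WT and P25 KO) had 4 libraries, and each library held the RNA of 1 ganglion. The labels name no strain, sex, allele or treatment, and call the animals Nogo-A KO without saying in which cells the deletion acts. The names of E14 WT replicates 2 and 4 share a number with a right and a left mark, as do those of E14 KO replicates 1 and 3, so these may come from 1 animal each.

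Collagens are secreted or membrane-bound proteins in which chains wind into a triple helix, and each gene encodes 1 kind of chain. Fibrillar collagens build the cable-like fibrils of connective tissue, FACITs sit on those fibrils, type IV forms the sheet of basement membranes, and multiplexins lie where a basement membrane meets the surrounding matrix. In peripheral ganglia and nerves, basement membranes surround vessels, Schwann cells and satellite glia, while fibrils of types I, III and V fill the sheaths and the space between the fibres.

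Library totals ran from 15532373 to 29562379 estimated counts. Levels are given in CPM, a gene's count scaled to the library's total, and so are shares of a library; in these whole ganglia, fewer cells of a type and less RNA per cell cannot be told apart. Rtn4 itself averaged 360 ± 164 CPM in WT at E14 against 298 ± 74.7 CPM in KO, and 489 ± 58.7 against 368 ± 17.9 CPM at P25 (SD, n = 4). That total adds all transcripts of the gene, including those that do not encode Nogo-A, and it did not pass the edgeR test at E14 (adjusted p = 0.943) or at P25 (adjusted p = 1). One library stood apart: in E14 WT replicate 2, 63.4% of the variance of its deviation from the libraries of its stage, over all genes, went with the GC content and length of transcripts, against 2.17% to 50.4% in the other 15. Collagen transcripts are rich in GC, with a median of 55.9% over the tested members against 50.4% over all tested genes, so results that rest on that library are given with and without it.

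Collagen genes together made up a smaller share of the ganglion's RNA at P25 than at E14, and the balance between classes shifted from basement membrane to fibrillar genes. Their summed level was 4446, 7066, 4950 and 4683 CPM in the E14 WT libraries and 3607, 3736, 3836 and 2966 CPM in the P25 WT libraries, so the P25 WT libraries were all lower. The WT sums averaged 5286 ± 1204 CPM at E14 and 3536 ± 392 CPM at P25, and the KO sums 4509 ± 472 and 3821 ± 545 CPM (SD, n = 4); 1 KO library at E14, at 3828 CPM, was below 2 of the KO libraries at P25. As a share of all collagen counts, type IV genes went from 36.1% in E14 WT to 22.6% in P25 WT, and from 36.8% to 21.8% in KO. Fibrillar genes went from 32.6% to 52.7% in WT and from 31.5% to 53.6% in KO. FACIT genes went from 10.2% to 4.52% in WT and from 10.2% to 4.65% in KO.

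**Figure D1:**
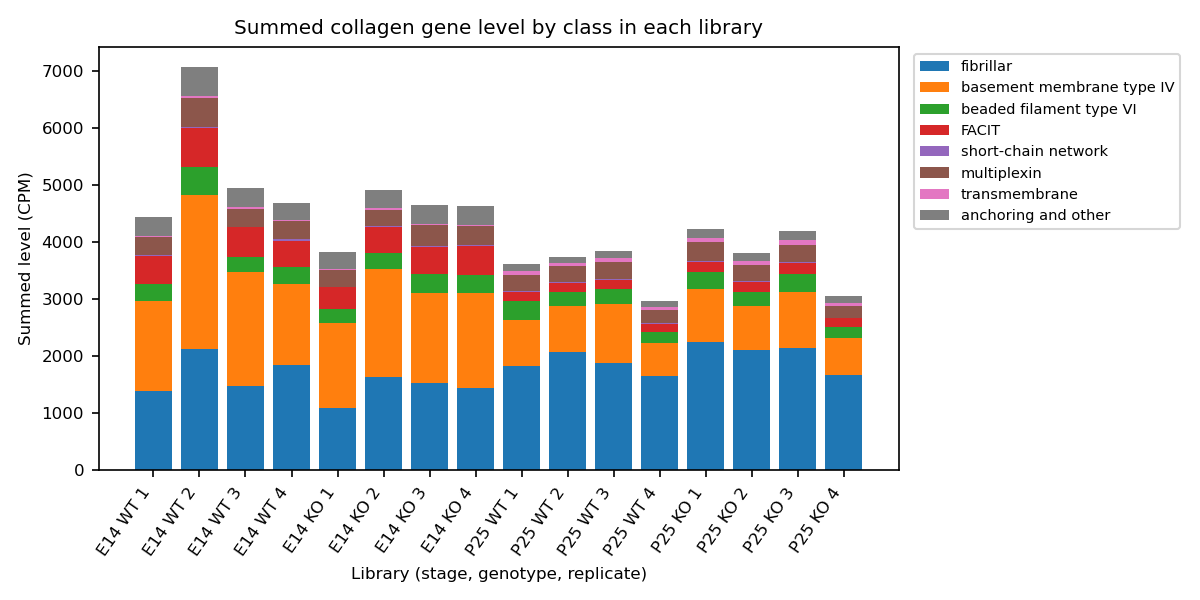
Summed level of the 44 collagen genes in each of the 16 libraries, in CPM, stacked by class. E14 WT replicate 2 is the tallest bar at 7066 CPM, and the type IV segment is smaller in all P25 libraries than in any E14 library.

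Across the 42 tested members, 29 changed between E14 and P25 in WT at an edgeR adjusted p under 0.05, 9 upward and 20 downward. Col4a3, Col4a4 and Col6a5, all called upward, passed the low-count filter only through P25 libraries, so no fall could be called for them. The same limit held for Col10a1, which was not called. Of all 15109 genes tested, 59.6% were called in this comparison, with 29.7% higher and 29.8% lower at P25, so the share of collagens called upward was below the background and the share called downward was above it. The median log2 fold change of the 42 was -0.66, against 0.00 over all genes. In KO, 24 members changed, 12 upward and 12 downward, where the background was 59.8% in either direction, 30.6% higher and 29.2% lower, and the median was -0.23 against 0.01 over all genes. The 2 stage comparisons share no library. Of the members, 21 were called in both genotypes and all 21 moved the same way, 9 upward and 12 downward. The share of all genes called in both, or moving the same way in both, is not given here. The agreement therefore describes the members without setting them apart from other genes. Another 8 were called in WT alone, 3 in KO alone and 10 in neither, and no member's stage change differed between genotypes by the test given further on. Without E14 WT replicate 2 the count in WT was 10 upward and 21 downward of 43 tested. Of all 15314 genes tested in that fit, 4877 were called higher and 4811 lower. With offsets for transcript GC content and length, KO had 11 upward and 19 downward of 42. The calls over all 15109 genes rose there too, to 5432 higher and 5221 lower, from 4622 and 4410 in the main fit.

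**Figure D2:**
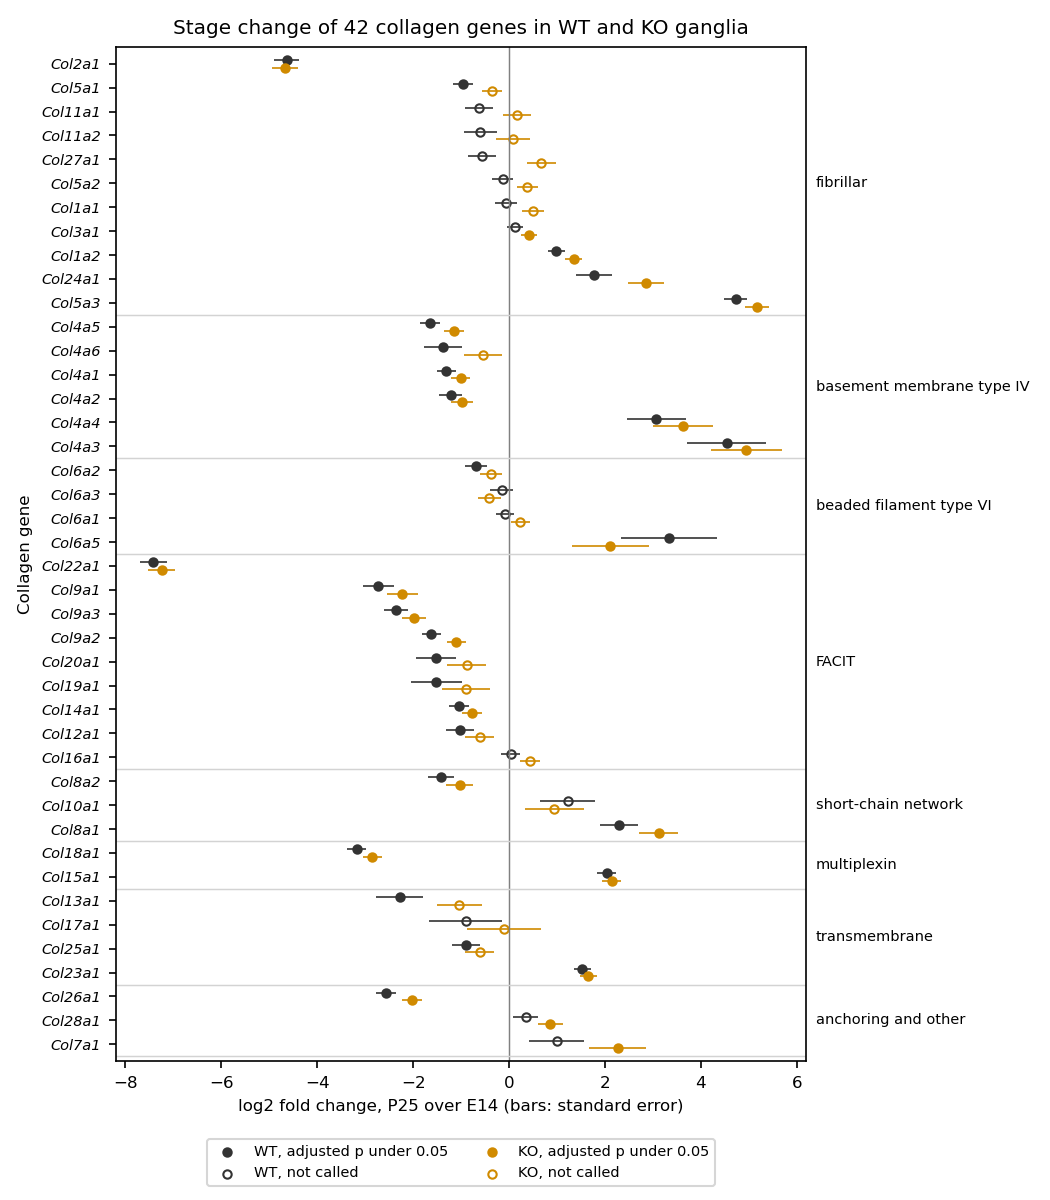
log2 fold change from E14 to P25 of the 42 tested collagen genes, by class, in WT and KO, with standard errors; filled points have an edgeR adjusted p under 0.05. The 2 genotypes moved the same way for every gene called in both, from Col22a1 at -7.42 in WT to Col5a3 at 4.73. The share of all genes that did so is not given.

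Per kilobase of transcript, Col4a1 and Col4a2 stood highest in E14 WT, at 153 ± 41.3 and 139 ± 48.1 CPM per kb (SD, n = 4), followed by Col26a1 at 116 ± 39.8, Col3a1 at 73.5 ± 11.9 and Col1a1 at 73.0 ± 26.9. Those 5 overlapped within their spread from each to the next, except for the step from Col26a1 to Col3a1, which exceeded the SD of each. At P25 in WT the order was Col1a2 at 121 ± 19.6, Col3a1 at 80.5 ± 11.3, Col1a1 at 70.0 ± 8.52, Col4a1 at 61.8 ± 12.4 and Col4a2 at 60.0 ± 16.5 CPM per kb. Col1a2 stood above the rest by more than the SDs, and the steps among the other 4 were within the larger SD of each pair. Col26a1 had moved from the third place to the tenth, and Col5a3 and Col15a1 stood in the seventh and the sixth.

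Among the fibrillar genes, 3 of 11 rose and 2 fell in WT, and 4 rose and 1 fell in KO. Col2a1 (GRCm38 chromosome 15, 97975602 to 98004695), the main fibrillar chain of cartilage, was at 178, 365, 263 and 192 CPM in E14 WT and at 8.29, 10.0, 10.9 and 10.8 CPM in P25 WT. In E14 KO it was at 196, 274, 185 and 272 CPM and in P25 KO at 10.0, 11.6, 8.40 and 6.39 CPM. Every E14 library was above every P25 library, by more than an order of magnitude. The log2 fold change was -4.64 (SE 0.26, adjusted p = 1.2e-11) in WT and -4.67 (SE 0.26, adjusted p = 1.14e-11) in KO. Col5a3 (chromosome 9, 20770050 to 20815067), the less widespread chain of type V collagen, moved the other way. It was at 5.78, 9.15, 5.12 and 5.70 CPM in E14 WT and at 176, 154, 215 and 135 CPM in P25 WT, with 3.73 to 6.52 CPM in E14 KO and 145 to 223 CPM in P25 KO. The stages did not overlap in either genotype, and the log2 fold change was 4.73 (SE 0.24, adjusted p = 3.54e-12) in WT and 5.16 (SE 0.25, adjusted p = 1.56e-12) in KO.

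The chains of the most common fibrils changed less. Col1a2, the minor chain of type I collagen, was at 276, 339, 288 and 405 CPM in E14 WT and at 533, 786, 640 and 620 CPM in P25 WT, so it was higher in all P25 WT libraries (log2 fold change 0.98, SE 0.18, adjusted p = 9.22e-05; KO 1.35, SE 0.18, adjusted p = 2.47e-06). Col1a1, the major chain of the same fibril, was at 311, 646, 311 and 463 CPM in E14 WT and at 420, 454, 444 and 343 CPM in P25 WT, and the stages overlapped. Its log2 fold change was -0.06 in WT (SE 0.23, adjusted p = 0.838) and 0.51 in KO (SE 0.23, adjusted p = 0.0612). The WT value turned to 0.20 without E14 WT replicate 2, and the KO value passed the threshold in 14 of 25 alternatives. Col3a1, which forms fibrils with type I, did not pass in WT (0.13, SE 0.17, adjusted p = 0.514) and rose in KO (0.42, SE 0.17, adjusted p = 0.0364), a call that was lost without E14 KO replicate 1 (0.30, adjusted p = 0.139), P25 KO replicate 1 (0.41, adjusted p = 0.0693) or P25 KO replicate 3 (0.38, adjusted p = 0.0851), and also with GC and length offsets (0.34, adjusted p = 0.0519) or library totals alone (0.38, adjusted p = 0.0596).

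Of the chains that start or limit fibrils, Col5a1 fell in WT (-0.96, SE 0.21, adjusted p = 0.00051) and did not pass in KO (-0.35, SE 0.21, adjusted p = 0.151), where it passed with GC and length offsets (-0.57, adjusted p = 0.000534). Its partner Col5a2 passed in neither (-0.13 and 0.38), and its KO value passed in 3 alternatives at 0.37 to 0.40. Col11a1 and Col11a2, chains of the type XI collagen that joins type II fibrils, passed in neither genotype, at -0.63 and -0.60 in WT and 0.17 and 0.08 in KO. The WT value of Col11a1 passed in 4 alternatives, among them the fit without E14 WT replicate 2 (-0.81, adjusted p = 0.0143) and that with GC and length offsets (-0.48, adjusted p = 0.0331). Col11a2 in E14 WT ranged from 4.08 to 17.8 CPM, the highest being replicate 2. Col24a1, a minor fibrillar chain, rose in both genotypes, from 0.98 ± 0.64 to 3.33 ± 0.77 CPM in WT and from 0.85 ± 0.39 to 6.10 ± 0.63 CPM in KO (SD, n = 4), with log2 fold changes of 1.77 (SE 0.37) and 2.85 (SE 0.38). Col27a1, another minor fibrillar chain, passed in neither, at -0.56 in WT (SE 0.29, adjusted p = 0.111) and 0.68 in KO (SE 0.30, adjusted p = 0.0551), and the KO value passed in 13 alternatives, at up to 0.92 without P25 KO replicate 4 (adjusted p = 0.00862).

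**Figure D3:**
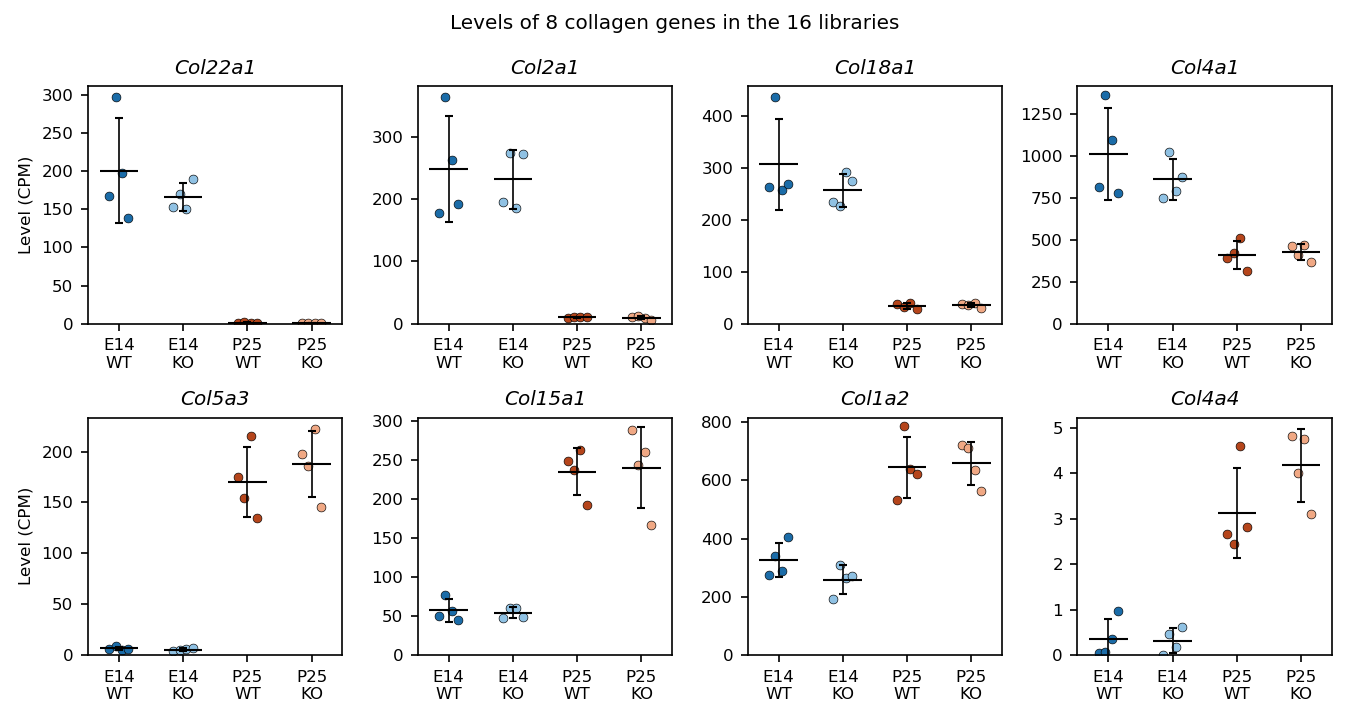
Levels of 8 collagen genes in CPM; each point is 1 library, the horizontal line is the mean of 4 and the bar is the SD. Col22a1, Col2a1 and Col18a1 are near the floor of their panels at P25, Col5a3 and Col15a1 are high only at P25, and WT and KO points overlap at each age in all 8 panels.

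All 6 type IV genes changed in WT, 4 downward and 2 upward, and the split followed the pairs in which these genes lie in the genome. The 2 upward, Col4a3 and Col4a4, passed the low-count filter only through P25 libraries, so a rise was the only call open to them. Col4a1 and Col4a2, the chains of the common basement membrane trimer, were lower at P25. Col4a1 was at 816, 1362, 1095 and 775 CPM in E14 WT and at 390, 423, 511 and 312 CPM in P25 WT, without overlap (-1.31, SE 0.20, adjusted p = 9.76e-06; KO -1.01, SE 0.19, adjusted p = 0.000163). Col4a2 went from 898 ± 310 to 387 ± 106 CPM in WT (SD, n = 4), a change of -1.22 (SE 0.24, adjusted p = 0.000182), and KO gave -0.98 (SE 0.23, adjusted p = 0.00133). Col4a5, a chain of specialised trimers, fell in both genotypes, from 13.3 ± 2.98 to 4.26 ± 0.85 CPM in WT (-1.65, SE 0.21, adjusted p = 1.32e-06) and from 13.9 ± 1.3 to 6.30 ± 0.82 CPM in KO (-1.14, SE 0.21, adjusted p = 8.45e-05). Its neighbour Col4a6 fell in WT (-1.37, SE 0.39, adjusted p = 0.00536) and had -0.54 in KO (SE 0.40, adjusted p = 0.247).

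Col4a3 and Col4a4, which assemble with Col4a5 in the basement membranes of kidney, lung and ear, were close to absent at E14 and rose in both genotypes, though they stayed at low levels. Col4a4 was at 0.046, 0.061, 0.34 and 0.96 CPM in E14 WT and at 2.66, 2.44, 4.59 and 2.82 CPM in P25 WT, so the stages did not overlap (3.07, SE 0.62, adjusted p = 0.000254). In KO the change was 3.62 (SE 0.63, adjusted p = 5.5e-05). The WT value was 4.44 without E14 WT replicate 4, the library with the highest embryonic level. Col4a3 had 2 counts in all E14 WT libraries together and 73 in P25 WT, a ratio of scaled counts of 28.0 (95% exact counting interval 7.49 to 236), and 3 against 130 counts in KO, a ratio of 34.6 (11.6 to 170).

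The 6 type IV genes lie head to head in 3 pairs, transcribed away from each other, and the stretch between the starts is shown because the members of each pair moved the same way with age in WT. Col4a1 and Col4a2 (chromosome 8) start so close that their annotated starts overlap by 22 bases, so no stretch is shown for them. Col4a4 (minus strand) and Col4a3 (plus strand) are separated by 71 bases, and Col4a6 (minus) and Col4a5 (plus) by 1308 bases on chromosome X. The sequences are from RefSeq on GRCm38.p6, cut to lie outside the annotated genes, and 35 of the 44 members had an entry. They run 5′ to 3′ toward the named gene, from chr1:82586850-82586920 on the minus strand for Col4a4, chrX:141474077-141474326 on the minus strand for Col4a6 and chrX:141475169-141475384 on the plus strand for Col4a5. Capitals mark matches on either strand to 3 motifs: the GC box, spelled GGGCGG, the CCAAT box, and the TATA box, spelled TATAAA. No match overlaps another here.
Col4a4: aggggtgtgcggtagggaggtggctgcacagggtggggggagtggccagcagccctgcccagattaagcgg
Col4a6: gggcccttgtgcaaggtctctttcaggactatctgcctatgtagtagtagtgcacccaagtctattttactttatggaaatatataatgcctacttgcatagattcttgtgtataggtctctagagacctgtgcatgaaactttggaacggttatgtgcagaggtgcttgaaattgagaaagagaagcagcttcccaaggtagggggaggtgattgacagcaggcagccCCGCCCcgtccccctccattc
Col4a5: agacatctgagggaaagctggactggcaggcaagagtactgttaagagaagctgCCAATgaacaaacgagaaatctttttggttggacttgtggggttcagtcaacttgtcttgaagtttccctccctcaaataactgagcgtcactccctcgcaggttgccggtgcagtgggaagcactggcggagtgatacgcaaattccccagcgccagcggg
The 71 bases between Col4a4 and Col4a3 held none of the 3 motifs, the 250 bases beside Col4a6 held 1 GGGCGG match and the 216 bases beside Col4a5 held 1 CCAAT match. Among 32851 RefSeq promoters, 20.7% held GGGCGG in the 71 bases before the start, 32.7% held it in 250 bases, and 30.8% held CCAAT in 216 bases. These matches describe the letters only.

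Of the type VI genes, which form beaded filaments around cells, 4 of 6 passed the filter. In WT 1 rose, 1 fell and 2 did not pass, and in KO 1 rose and 3 did not pass. The gene that rose, Col6a5 in both, passed the filter only through P25 libraries, so a rise was the only call open to it. Col6a1 was at 90.0, 138, 78.2 and 92.6 CPM in E14 WT and at 113, 95.5, 88.8 and 77.5 CPM in P25 WT, overlapping throughout (-0.09, SE 0.19, adjusted p = 0.702; 0.11 without E14 WT replicate 2). Col6a2 was at 149, 259, 126 and 143 CPM and at 143, 97.1, 94.8 and 84.6 CPM. The highest P25 library reached into the E14 range, and the change of -0.69 (SE 0.23, adjusted p = 0.0156) was lost without E14 WT replicate 2 (-0.41, adjusted p = 0.0773), P25 WT replicate 2 (-0.59, adjusted p = 0.058) or P25 WT replicate 4 (-0.60, adjusted p = 0.051). In KO Col6a2 had -0.38 (SE 0.23, adjusted p = 0.172), which passed with the GC and length offsets (-0.48, adjusted p = 0.0105).

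Col6a3, the long chain of the type VI filament, was at 64.8 ± 13.1 CPM in E14 WT and 58.4 ± 20.2 CPM in P25 WT (-0.15, SE 0.24, adjusted p = 0.599), with -0.41 in KO (SE 0.24, adjusted p = 0.139). The KO value passed with the GC and length offsets (-0.62, adjusted p = 0.000574) and in a fit of the compared libraries only (-0.39, adjusted p = 0.0421). Without E14 WT replicate 2 or P25 WT replicate 4 the WT value was 0.00 or 0.08. Col6a5, a chain that can replace Col6a3, had 3 counts in E14 WT and 44 in P25 WT, a ratio of scaled counts of 11.3 (95% exact counting interval 3.61 to 56.7). In KO it had 10 and 55 counts (2.11, SE 0.81, adjusted p = 0.0298), a call that was lost without E14 KO replicate 3 (1.77, adjusted p = 0.0713), E14 KO replicate 4 (2.01, adjusted p = 0.0681), P25 KO replicate 3 (1.64, adjusted p = 0.115) or P25 KO replicate 4 (2.10, adjusted p = 0.0523). Col6a4 had 1 to 11 counts per library and Col6a6 had 0 to 18, and neither was tested.

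Of the 9 FACIT genes, 8 fell in WT and 5 in KO, and none rose in either, with class medians below 0 in both. Col22a1 (chromosome 15, 71795795 to 72034227), a FACIT known from the junctions of muscle and tendon, had the largest change of any of the 42 tested members. It was at 168, 298, 199 and 139 CPM in E14 WT and at 0.81, 1.48, 1.11 and 1.27 CPM in P25 WT. In KO it was at 153, 171, 151 and 190 CPM at E14 and at 1.28, 0.99, 0.87 and 1.23 CPM at P25. The highest P25 library was far below the lowest E14 library, and the fitted difference was 171-fold in WT (log2 fold change -7.42, SE 0.28, adjusted p = 5.52e-14) and 151-fold in KO (-7.24, SE 0.28, adjusted p = 8.12e-14).

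The 3 chains of type IX collagen, which coats type II fibrils, fell together in both genotypes. Col9a1 fell by 2.73 on the log2 scale in WT (SE 0.32, adjusted p = 4.66e-07), Col9a3 by 2.36 (SE 0.25, adjusted p = 9.93e-08) and Col9a2 by 1.62 (SE 0.20, adjusted p = 8.44e-07). The KO values were -2.22, -1.99 and -1.10. Their levels differed: Col9a2 went from 38.1 to 12.4 CPM per kb in WT, and Col9a3 from 7.50 to 1.46. Col14a1 and Col12a1, which decorate type I fibrils, had -1.05 and -1.02 in WT, both called, and -0.77 (called) and -0.61 (adjusted p = 0.0799) in KO, the last of which passed with the GC and length offsets (-0.74, adjusted p = 0.00811). Col20a1 (-1.52) and Col19a1 (-1.51) fell in WT and did not pass in KO (-0.88 and -0.90; Col20a1 passed with the offsets at -0.97, adjusted p = 0.0276), and their group means at P25 were 0.49 to 1.42 CPM. The Col19a1 call was lost without E14 WT replicate 1 (adjusted p = 0.0508), E14 WT replicate 3 (adjusted p = 0.109) or P25 WT replicate 4 (adjusted p = 0.0537). Col16a1 was the exception in the class, at 38.5 ± 13.8 CPM in E14 WT and 39.3 ± 5.80 CPM in P25 WT (0.03, SE 0.21, adjusted p = 0.907). In KO it had 0.44 (SE 0.21, adjusted p = 0.0734), which passed in 6 alternatives at 0.44 to 0.55.

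The 2 multiplexins moved in opposite directions. Col18a1 (chromosome 10, 77052178 to 77166548), the source of the endostatin fragment, was at 264, 438, 257 and 270 CPM in E14 WT and at 37.5, 31.9, 38.8 and 27.7 CPM in P25 WT. Col15a1 (chromosome 4, 47208161 to 47313167), its relative beneath the basement membranes of vessels, muscle and nerve, was at 49.8, 77.3, 56.9 and 44.7 CPM in E14 WT and at 248, 237, 262 and 192 CPM in P25 WT. The stages did not overlap for either gene in WT or KO. Col18a1 fell by 3.18 on the log2 scale in WT (SE 0.20, adjusted p = 5.76e-11) and by 2.85 in KO (SE 0.20, adjusted p = 2.33e-10). Col15a1 rose by 2.04 (SE 0.20, adjusted p = 3.57e-08) and by 2.14 (SE 0.20, adjusted p = 1.97e-08). Their summed level went from 365 ± 101 to 269 ± 35.3 CPM in WT and from 312 ± 33.4 to 276 ± 56.1 CPM in KO (SD, n = 4).

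The stretches before the starts of these opposite genes are shown for comparison, from chr4:47207762-47208011 on the plus strand for Col15a1 and chr10:77166549-77166780 on the minus strand for Col18a1, in the same notation as above. Col18a1 has a further annotated start inside the gene, which is not shown.
Col15a1: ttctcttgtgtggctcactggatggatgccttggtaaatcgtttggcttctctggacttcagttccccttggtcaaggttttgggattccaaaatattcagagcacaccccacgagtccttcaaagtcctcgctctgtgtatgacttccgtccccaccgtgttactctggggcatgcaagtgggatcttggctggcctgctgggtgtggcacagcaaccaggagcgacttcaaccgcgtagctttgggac
Col18a1: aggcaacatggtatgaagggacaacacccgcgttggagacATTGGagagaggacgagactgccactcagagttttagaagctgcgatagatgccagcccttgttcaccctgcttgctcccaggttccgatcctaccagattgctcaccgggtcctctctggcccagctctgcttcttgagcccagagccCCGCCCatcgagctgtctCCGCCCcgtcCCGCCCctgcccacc
The Col15a1 stretch of 250 bases held none of the 3 motifs. The Col18a1 stretch of 232 bases held 3 GGGCGG matches and 1 CCAAT match, all on the opposite strand. Of the 32851 promoters, 32.2% held GGGCGG and 32.3% held CCAAT in 232 bases. The files hold no measure of binding at these sites, and the matches describe the letters only.

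The short-chain genes split in the same manner. Col8a1, a network collagen of vessels and the cornea, rose from 1.51 ± 0.89 to 7.55 ± 1.40 CPM in WT (2.29, SE 0.40, adjusted p = 5.21e-05) and from 1.11 ± 0.59 to 9.64 ± 1.80 CPM in KO (3.12, SE 0.41, adjusted p = 2.26e-06). Its partner Col8a2 fell from 17.6 ± 4.29 to 6.59 ± 1.28 CPM in WT (-1.42, SE 0.28, adjusted p = 0.000186) and from 12.8 ± 5.23 to 6.30 ± 1.67 CPM in KO (-1.03, SE 0.28, adjusted p = 0.00318), all as SD with n = 4. Col10a1, a chain of hypertrophic cartilage, stayed at or below 0.60 CPM in every library and passed in neither genotype (1.22 in WT, adjusted p = 0.0767). Its WT value passed in 4 alternatives, among them the fit without E14 WT replicate 2 (1.61, adjusted p = 0.0324). Its KO value passed without E14 KO replicate 4 (1.77, adjusted p = 0.0355). Col10a1 was kept by the low-count filter only through P25 libraries, so a rise was the only call open to it.

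Among the transmembrane genes, Col23a1 rose in both genotypes. It was at 17.9, 24.1, 21.0 and 17.3 CPM in E14 WT and at 53.4, 56.4, 62.1 and 59.1 CPM in P25 WT, without overlap (1.53, SE 0.18, adjusted p = 4e-07; KO 1.65, SE 0.18, adjusted p = 1.46e-07). Col13a1, known from the neuromuscular junction, fell in WT (-2.28, SE 0.49, adjusted p = 0.00053) and had -1.04 in KO (SE 0.47, adjusted p = 0.0638). The KO value passed in 6 of 25 alternatives, among them the offsets (-1.15, adjusted p = 0.0242) and the fit without P25 KO replicate 3 (-1.38, adjusted p = 0.0293). Col25a1, a transmembrane collagen that motor axons need to enter muscle, fell in WT (-0.90, SE 0.30, adjusted p = 0.0135), a call that was lost without E14 WT replicate 3 (-0.67, adjusted p = 0.0773) or E14 WT replicate 4 (-0.73, adjusted p = 0.0613), and had -0.61 in KO (adjusted p = 0.0819), which passed in 4 alternatives, among them the offsets (-0.65, adjusted p = 0.00316). Col17a1, the collagen of hemidesmosomes in skin, stayed at or below 0.62 CPM and passed in neither.

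The last class held Col26a1, Col28a1 and Col7a1. Col26a1 was at 291, 486, 273 and 241 CPM in E14 WT and at 55.3, 53.4, 50.9 and 58.6 CPM in P25 WT, without overlap (-2.56, SE 0.21, adjusted p = 3.36e-09; KO -2.02, SE 0.21, adjusted p = 7.26e-08). Col28a1, a collagen known from peripheral nerve, did not pass in WT (0.35, SE 0.26, adjusted p = 0.257) and rose in KO (0.86, SE 0.26, adjusted p = 0.00787), from 35.1 to 51.4 CPM at E14 to 67.5 to 79.8 CPM at P25. Col7a1, the anchoring fibril chain beneath epithelia, had 0.99 in WT (SE 0.58, adjusted p = 0.152; 1.65 without E14 WT replicate 1, adjusted p = 0.038) and rose in KO (2.27, SE 0.59, adjusted p = 0.00257), with 2.02 to 4.2 CPM in the P25 KO libraries.

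Chains that share a trimer did not always keep their ratio. The ratios below are of CPM per kb, were chosen after the levels had been seen, and were tested by two-sided exact permutation tests of 4 against 4 libraries, with 8 tests in all and a smallest possible p of 0.0286. These tests take each library as a separate unit. If some E14 ganglia share an animal, fewer units remain and the smallest possible p is larger. The ratios were not tested with such ganglia summed. The ratio of Col1a1 to Col1a2 went from 1.19 ± 0.36 in E14 WT to 0.589 ± 0.098 in P25 WT and from 1.15 ± 0.18 to 0.641 ± 0.080 in KO (SD, n = 4; exact p = 0.0286, adjusted 0.0381, in each). Without E14 WT replicate 2, which had 1.72, the E14 WT ratio was 0.977 to 1.03, still above all P25 WT libraries at 0.498 to 0.711. The ratio of Col5a1 to Col5a2 went from 3.91 ± 2.92 to 1.81 ± 0.17 in WT and from 2.94 ± 0.24 to 1.74 ± 0.27 in KO (exact p = 0.0286, adjusted 0.0381, in each). The first of these fell to a mean of 2.45 without the same library, which had 8.27.

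The ratio of Col6a1 to Col6a2 moved upward, from 0.683 ± 0.056 to 1.03 ± 0.093 in WT and from 0.625 ± 0.042 to 0.978 ± 0.10 in KO (SD, n = 4; exact p = 0.0286, adjusted 0.0381, in each). That of Col4a1 to Col4a2 was 1.12 ± 0.11 and 1.05 ± 0.12 in WT (exact p = 0.429) and 1.07 ± 0.084 and 1.07 ± 0.14 in KO (exact p = 1), a difference smaller than the spread between libraries. The 2 chains of a ratio can differ in GC content, at 58.9% and 55.7% for Col1a1 and Col1a2 and 58.0% and 49.7% for Col5a1 and Col5a2, but at 56.7% and 56.2% for Col6a1 and Col6a2. Its part in the ratios was not tested.

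Genes that modify, export and process collagen chains moved in a mixed way with age. Of all genes tested, 29.7% were called higher and 29.8% lower at P25 in WT, and 30.6% and 29.2% in KO, so many of the counts below are near what all genes give, and they describe the lists without setting any apart. Of 15 prolyl and lysyl modification genes, 2 rose and 7 fell in WT (median -0.33), and the same counts held in KO (median -0.47). Colgalt1 and Colgalt2, which add galactose to hydroxylysine, moved apart: Colgalt1 went from 198 ± 81.0 to 88.5 ± 4.22 CPM in WT (-1.16, SE 0.22, adjusted p = 0.000117) and Colgalt2 from 32.4 ± 3.46 to 74.7 ± 12.2 CPM (1.21, SE 0.16, adjusted p = 2.75e-06). Of 8 chaperone and export genes, 4 rose and 2 fell in each genotype (median 0.64 in WT, 0.71 in KO). Sparc, a collagen-binding matricellular protein, rose from 478 ± 42.4 to 1904 ± 169 CPM in WT (1.99, SE 0.15, adjusted p = 5.04e-10), and Fkbp10, a chaperone of type I procollagen, fell (-1.31, SE 0.18, adjusted p = 4.27e-06).

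Among 8 propeptide processing genes, 4 rose and 1 fell in WT (median 1.12), and 5 rose and 1 fell in KO (median 1.36). Tll2, among those that rose in both, had 10 counts in E14 WT and 157 in P25 WT and passed the filter only through P25 libraries. Tll1 and Bmp1 are related proteases that trim the carboxyl end of procollagens. Tll1 rose from 0.54 ± 0.29 to 3.73 ± 0.51 CPM in WT (2.75, SE 0.48, adjusted p = 5.5e-05), and Bmp1 fell from 109 ± 51.2 to 36.5 ± 2.67 CPM (-1.57, SE 0.23, adjusted p = 9.6e-06). Of the 5 cross-linking oxidases, 1 rose and 3 fell in WT (median -0.86), and 1 rose and 2 fell in KO (median -0.50). Loxl2 fell (-1.87, SE 0.17, adjusted p = 1.18e-08) and Loxl4 rose (1.24, SE 0.43, adjusted p = 0.0169) in WT.

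Of 11 tested collagen receptors, 2 rose and 5 fell in WT (median -0.51), and 4 rose and 4 fell in KO (median 0.36). Itga1, the integrin chain that binds type IV collagen, rose from 2.56 ± 1.59 to 7.30 ± 1.19 CPM in WT (SE 0.38 on a log2 change of 1.5, adjusted p = 0.00187), and the receptor kinase Ddr1 fell from 198 ± 76.7 to 89.2 ± 9.91 CPM (-1.15, SE 0.20, adjusted p = 4.64e-05). Of 10 small proteoglycans that bind fibrils, 9 were tested, and 7 were higher in WT and 9 in KO. Omd had no count at E14 and passed the filter only through P25, Aspn had 15 counts in E14 WT and 32 in P25 WT, and Kera, with 8 counts at E14 and none at P25, was not tested. The counts therefore only describe the genes that passed the filter. Prelp, which tethers fibrils to basement membranes, rose from 0.955 ± 0.44 to 59.2 ± 10.4 CPM in WT (5.94, SE 0.32, adjusted p = 7.14e-12). Of 10 tested genes of collagen degradation, 2 rose and 4 fell in WT (median -0.49), and 2 rose and 5 fell in KO (median -0.55). Timp2, an inhibitor of collagenases, rose from 213 ± 41.6 to 1317 ± 122 CPM (2.63, SE 0.17, adjusted p = 8.31e-11), and Mmp9, a gelatinase, fell from 4.71 ± 1.15 to 0.98 ± 0.58 CPM (-2.25, SE 0.41, adjusted p = 8.44e-05).

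Marker genes of the cell types that could carry these collagens also moved with age, and their part in the collagen results was not tested. Their counts stand beside the shares of all genes, 29.7% called higher and 29.8% lower in WT and 30.6% and 29.2% in KO, and that of the fibroblast list is near them. The summed level of 12 Schwann cell and satellite glia markers was 1063 to 1612 CPM in the 8 E14 libraries and 22540 to 44990 CPM in the 8 P25 libraries, with 9 of 12 called higher in each genotype. The 10 endothelial markers summed to 240 to 302 CPM at E14 and 122 to 218 CPM at P25, with 7 called lower and 2 higher in WT, and 6 lower and 3 higher in KO. The 12 fibroblast and meningeal markers summed to 244 to 347 CPM and 362 to 436 CPM, with 4 called each way in WT, and 5 higher and 3 lower in KO. Dpt, among those called higher in both, had no count at E14 and passed the filter only through P25 libraries. Twist2, called lower in WT, had 62 counts in E14 WT and 28 in P25 WT. The calls describe only the genes that passed the filter. Pericyte and smooth muscle markers summed to 105 to 206 CPM and 133 to 207 CPM, macrophage markers to 48.0 to 110 CPM and 201 to 295 CPM, and sensory neuron markers to 12210 to 19860 CPM and 11270 to 14680 CPM.

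Col2a1, Col9a1, Col9a2, Col9a3 and Col22a1 are best known from cartilage or from muscle and tendon, so markers of those tissues are set beside them. Acan, the main proteoglycan of cartilage, reached at most 0.23 CPM in any E14 library, where Col2a1 was at 178 to 365 CPM. Matn1 and Ucma, also of cartilage, had no count in any E14 library, and Acan reached up to 4.03 CPM at P25, where Col2a1 was low. The 11 cartilage markers together summed to 36.8 to 49.3 CPM at E14 and 55.3 to 75.3 CPM at P25, the largest parts at E14 being Matn4 and Cnmd. Of these 11, 7 were tested, with 4 called higher and 1 lower at P25 in WT, and 3 higher and 1 lower in KO. The 1 that fell was Sox5, which encodes a transcription factor of cartilage formation that other cells also make, from 6.45 ± 3.29 to 1.93 ± 0.46 CPM in WT (SD, n = 4; -1.74, SE 0.43, adjusted p = 0.00163). The 10 skeletal muscle markers summed to 3.60 to 14.9 CPM at E14 and 6.32 to 12.7 CPM at P25; 6 were tested, with 2 called higher and 3 lower in WT, and 2 each way in KO. Myog, a transcription factor of muscle differentiation, fell in both genotypes, with 149 counts in E14 WT and 1 in P25 WT. In KO it had 90 and 2 counts. Myog passed the low-count filter only through E14 libraries, so a fall was the only call open to it. Myod1, a related factor that was not tested, had 45 and 0 counts in WT. Myh8, a myosin of young muscle, rose from 0.26 ± 0.17 to 5.76 ± 1.52 CPM in WT (4.46, SE 0.44, adjusted p = 3.9e-08). Its E14 WT level was near the floor, and the muscle counts describe only the genes that passed the filter. The 8 bone markers summed to 9.92 to 15.5 CPM at E14 and 30.5 to 41.4 CPM at P25, and the 8 surface epithelium markers to 3.02 to 7.81 and 4.68 to 9.35 CPM.

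No collagen gene passed the test of KO against WT at E14 by edgeR or by DESeq2 at an adjusted p under 0.05, where 0.0199% of all genes were called by edgeR. At an unadjusted p under 0.05, edgeR gave 1 of 42 members, against 4.86% of all genes. That member was Col9a1, with 3.85, 4.09, 2.84 and 4.73 CPM in the WT libraries and 2.15, 2.01, 2.68 and 2.52 CPM in the KO libraries. All KO libraries were below all WT libraries (-0.73, SE 0.29, unadjusted p = 0.0217, adjusted p = 0.942), as was so for 1.11% of all genes. The next lowest p-values were those of Col27a1 (-0.58, SE 0.30, unadjusted p = 0.0646) and Col16a1 (-0.40, SE 0.21, unadjusted p = 0.0688), both with overlapping groups and adjusted p = 0.942. Without E14 WT replicate 2 Col27a1 was at -0.35 (unadjusted p = 0.235) and Col16a1 at -0.12 (unadjusted p = 0.451), and with offsets for transcript GC content and length they were at -0.31 (unadjusted p = 0.199) and -0.165 (unadjusted p = 0.3). Leaving out that replicate gave 2 of 43 members at an unadjusted p under 0.05. For that fit the share of all genes is not given here.

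The collagens leaned to 1 side at E14 without a single call. The fold change was below 1 (log2 below 0) for 38 of the 42 tested members, against 56.3% of all genes, and the median was -0.24, against -0.04 over all genes. This lean was smaller without E14 WT replicate 2, at 32 of 43 members below 0 and a median of -0.11. All genes gave 50.2% and -0.001 in that fit. Without E14 KO replicate 1 the count was 32 of 42 and the median -0.17, against 53.8% and -0.02 over all genes. Without E14 WT replicate 4 they were 33 of 42 and -0.24, against 50.3% and -0.003. With offsets for transcript GC content and length the lean was 27 of 42 and -0.06, against 48.1% and 0.008 over all genes. In E14 WT replicate 2 the deviation from the other 3 E14 WT libraries rose with GC over the 37 members whose mean reached 1 CPM (Spearman's rho 0.80). These genes share 1 library and are not independent replicates. All 19 members with the higher GC content were above the mean of the other 3 libraries there, and 6 of the 18 with the lower.

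**Figure D4:**
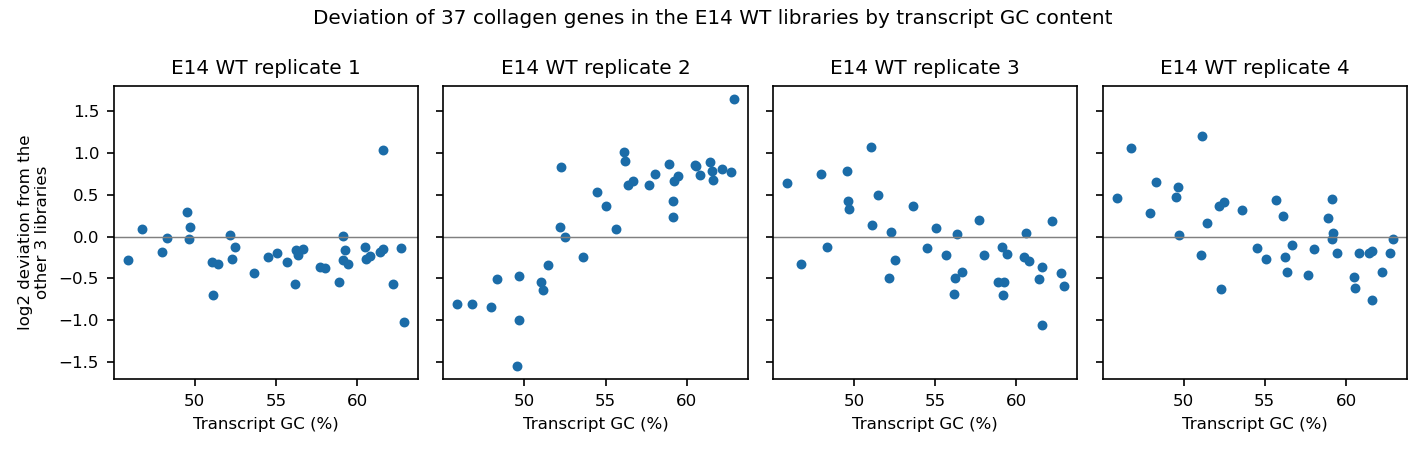
Deviation of 37 collagen genes from the mean of the other 3 E14 WT libraries (log2 of CPM plus 0.5) against transcript GC content in percent, 1 panel per E14 WT library. In replicate 2 the points rise with GC (rho 0.80), and in replicates 3 and 4 they fall (rho -0.59 and -0.60). Replicate 2 is part of the mean from which replicates 3 and 4 deviate, and its part in their slopes was not tested.

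At P25 no collagen gene passed the test between genotypes by edgeR or by DESeq2 either, where 0.0463% of all genes were called by edgeR. At an unadjusted p under 0.05 there were 3 of 42 members, against 1.87% of all genes, namely Col4a5, Col24a1 and Col27a1. The number was 6 of 43 without E14 WT replicate 2 and 8 of 41 with the compared libraries only. It was 8 of 43 with same-numbered ganglia summed and 2 of 42 with the replicate block. The share of all genes under those fits is not given here. Col4a5 was at 4.03, 5.52, 3.88 and 3.63 CPM in the WT libraries and 7.04, 5.39, 5.84 and 6.95 CPM in the KO libraries, overlapping by 1 library (0.57, SE 0.21, unadjusted p = 0.0132, adjusted p = 1). Col24a1 was at 3.22, 3.46, 4.27 and 2.40 CPM in P25 WT and 6.79, 6.08, 6.25 and 5.28 CPM in P25 KO; all KO libraries were higher (0.87, SE 0.34, unadjusted p = 0.0174, adjusted p = 1). Col27a1 was at 6.28, 3.88, 6.64 and 5.56 CPM in the WT libraries and 10.8, 9.96, 9.81 and 4.60 CPM in the KO libraries, with 1 low KO library (0.65, SE 0.29, unadjusted p = 0.0383, adjusted p = 1).

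In 5 members all P25 KO libraries were above all P25 WT libraries, which was so for 2.05% of all genes: Col5a2, Col24a1, Col4a3, Col7a1 and Col28a1. The log2 fold change was above 0 for 35 of 42 members, against 46.4% of all genes, with a median of 0.18 against -0.02. With the GC and length offsets 26 of 42 were above 0 and the median was 0.07, against 46.2% and -0.01 over all genes. Leaving out P25 KO replicate 3 gave a median of 0.11 and leaving out P25 KO replicate 4 gave 0.26. The largest members by level differed little, WT and KO averaging 645 ± 105 and 658 ± 73.9 CPM for Col1a2, and 409 ± 82.2 and 426 ± 49.1 CPM for Col4a1 (SD, n = 4).

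**Figure D5:**
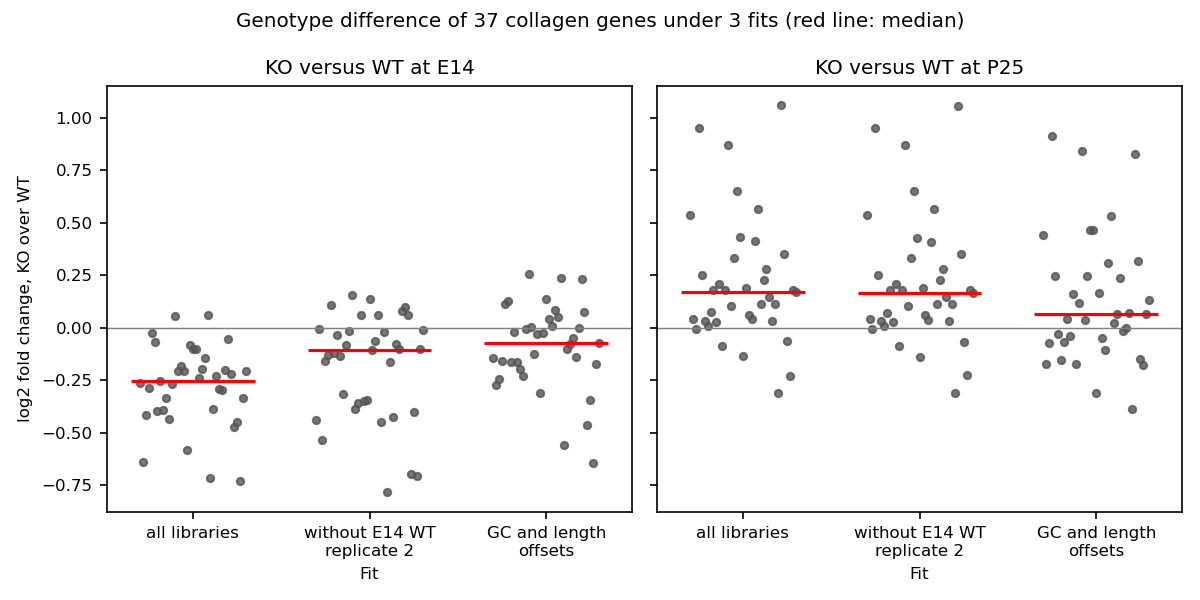
log2 fold change of KO over WT for 37 collagen genes whose mean reached 1 CPM, at E14 (left) and P25 (right), from the fit to all libraries, the fit without E14 WT replicate 2 and the fit with GC and length offsets; the red line is the median. The medians lie below 0 in the 3 E14 fits and above 0 in the 3 P25 fits, nearest to 0 with the offsets, and no point passed the test. At P25 the fit without E14 WT replicate 2 uses the same P25 libraries as the fit to all libraries. Its P25 fold changes therefore nearly repeat those and are no separate evidence of direction.

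No collagen gene passed the test of a difference in stage change between the genotypes. The interaction gave 0 called members by edgeR and by DESeq2, with 0.0% of all genes called by edgeR, and 2 members at an unadjusted p under 0.05, against 4.28% of all genes. These were Col27a1 (1.23, SE 0.42, unadjusted p = 0.00794, adjusted p = 0.993) and Col5a1 (0.62, SE 0.29, unadjusted p = 0.0478, adjusted p = 0.993), followed by Col24a1 (1.07, SE 0.52, unadjusted p = 0.0532). The interaction of Col5a1 was 0.39 without E14 WT replicate 2 and 0.16 with the GC and length offsets, that of Col24a1 was 0.50 without E14 WT replicate 3, and that of Col27a1 was 0.77 with the offsets. Leaving out E14 WT replicate 2 gave 6 of 43 members at an unadjusted p under 0.05. For that fit the share of all genes is not given here, so the count does not set the members apart. The interaction is built from the same 16 libraries as the 2 genotype comparisons, so its lean is not separate from theirs. It was above 0 for 38 of 42 members, against 55.4% of all genes, with a median of 0.43 against 0.05 over all genes. With the GC and length offsets it was above 0 for 32 of 42, against 47.0% of all genes, with a median of 0.18 against -0.02. All p-values here reflect how ganglia vary within groups, and some E14 ganglia may share an animal. The edgeR p-values use 1 estimate of spread per gene from all 16 libraries, so a P25 value also carries the E14 spread. Without E14 WT replicate 2, Col28a1 at P25 stayed at 0.43 (KO over WT). Its unadjusted edgeR p went from 0.114 to 0.0142.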

How the data were processed

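The 16 libraries, 1 per trigeminal ganglion, were made with a stranded mRNA kit, per the labels' protocols. For each gene the authors deposited an estimated count, as a whole number. Named in the submitters' processing notes are fastp 0.20.0, kallisto 0.46, DESeq2 1.32.0 and GRCm39, with no role or order. Which annotation and strand setting were used is not given in the sources used here. Of 25719 identifiers, 25614 matched a symbol. Length, GC content and positions came from an annotation of GRCm38 (GENCODE M21, longest coding transcript), another assembly than the one named, so positions are GRCm38 positions. Groups and replicate numbers came from the sample titles, and the labels give no batch.

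The counts were scaled by TMM and filtered by group with filterByExpr in edgeR 4.0.16 under R 4.3.3. A single fit gave each of the 4 groups its mean, followed by quasi-likelihood F tests, whose p-values were adjusted over 15109 genes by the Benjamini-Hochberg method. A gene counts as called, and as rising or falling, at an adjusted p under 0.05. SEs were derived from the F statistic. CPM used TMM-scaled totals. Counting intervals hold counting error alone: without molecular identifiers, PCR copies cannot be told from separate molecules. The fit was also run on counts simulated from the group means and spreads of these data, with results not given here. The labels state 4 animals per group, but some E14 ganglia may share an animal.

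The members, classes and lists were chosen with earlier results of these data known. Named with values were 8 chains of the common collagens, the largest called change each way per class in WT at a mean of at least 1 CPM, the 3 lowest p-values per genotype comparison and, per pathway list, the largest called change each way; the remaining members are accounted for by class. Alternatives were scaling by RLE or by library totals alone, DESeq2 1.42.0, no filter, a filter of 1 CPM in 4 libraries, a replicate block, summing of E14 ganglia whose names share a number, fits to the compared libraries only, GC and length offsets set within each stage, and leaving out each library. Same-numbered libraries of different groups correlated at -0.392 to 0.216 in their deviations, so the numbers do not pair them. No 2 libraries were identical. Figures were drawn with matplotlib 3.10.9.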

Additional observations from a re-analysis of the deposited data

Results flagged for a closer look

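Of 100 sets of 4 libraries checked (25 named collagen genes in 4 groups), 11 had 1 library whose gap to the nearest of the others exceeded Dixon's critical value for 4 samples, where chance alone flags about 1 in 20. In 6 of the 11 the library was E14 WT replicate 2, which was high each time: Col18a1 at 438.2 CPM (the other 3 at 257.2 to 269.8), Col5a1 at 292.3 (162.3 to 183), Col6a3 at 84.35 (56.17 to 59.47), Col16a1 at 58.92 (28.32 to 33.52), Col27a1 at 11.95 (6.694 to 7.186) and Col5a3 at 9.149 CPM (5.117 to 5.777). E14 KO replicate 1 was low for Col6a3 at 46.58 CPM (66.02 to 68.76) and for Col4a5 at 11.94 CPM (14.39 to 14.79). E14 KO replicate 4 was low for Col8a1 at 0.2381 CPM (1.34 to 1.493). E14 WT replicate 3 was high for Col24a1 at 1.933 CPM (0.5489 to 0.7449), and P25 KO replicate 4 was low for Col27a1 at 4.603 CPM (9.812 to 10.83).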

How the results depend on the processing

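The 5 counts of called collagen genes stayed within 1.5 times their values under every alternative run. In WT they ran from 27 to 32 called members and in KO from 23 to 31, and the genotype and interaction counts were 0 throughout. The stage calls over all genes also moved between these fits, so such shifts are not particular to the collagens. With the replicate block the stage counts were 29 in WT and 25 in KO, and Col1a1 in KO passed (adjusted p = 0.0464), the only member whose call the block changed. The median interaction moved to 0.18 with GC and length offsets. Leaving out 1 library at a time moved the median stage change in WT between -0.87 and -0.59 and in KO between -0.44 and -0.18. Among the values compared, directions turned for 3 members, none of them called in WT. Col1a1 became 0.022 without a filter, 0.14 with E14 ganglia summed and 0.13 with the offsets, and ranged from -0.119 to 0.20 without single libraries. Col6a1 became 0.038 with ganglia summed and 0.013 with the offsets, and ranged from -0.191 to 0.11. Col6a3 ranged from -0.286 to 0.075. The cause was not tested. A fit to the compared libraries only gave no interaction, which needs all 4 groups. Of the 1222 values of single genes under the alternatives, 1175 kept their direction and side of the threshold.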
